A study of Schizosaccharomyces pombe with 8 samples.

Results

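The gti1 locus is a 3 kb stretch of fission yeast chromosome I, from 380001 to 383000, between the genes tup12 and loc1, where DNA ends recovered with the meiotic chromosome protein Rec27 were dense. It was described from every ligated pair of DNA ends with at least 1 end in that stretch, 1720 of 225418 pairs over both libraries (521 of 101984 in the interacting library and 1199 of 123434 in the de-crosslinked library). The stretch was chosen by its number of ends in these same libraries (1 kb bins at 10 or more times the median bin), so its level is given as a description and was not tested. The tests concern the other end of each pair, which the choice did not use.

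Schizosaccharomyces pombe cells carrying Rec27-GFP, pat1-114 and a rec12 deletion (rec12D) were starved of nitrogen for about 18 hours, then given nitrogen and shifted to 34°C, and were collected 3.5 hours into meiosis. Both libraries share that genotype and treatment, and the temperature-sensitive pat1-114 allele is what drives the culture into meiosis together. Chromatin fixed with formaldehyde at 1% was sheared to about 1000 bp and immunoprecipitated through the GFP tag. For the interacting library, DNA ends were ligated while still crosslinked on beads, so ends held close together in the cell could be joined. For the de-crosslinked library, crosslinks were removed first, so joins form between free fragments. Each group is 1 library, with no replicate, and the other 6 of the 8 samples of the series (Rec27-GFP in rec8D cells, and the FLAG-tagged proteins) were not analysed here. No untagged or input sample was among the 8, so ends brought down by Rec27 cannot be separated from high counts that have another origin. The rec12 gene, deleted in both, held 1 end in each library, while the intact rec8 gene held 36 and 34.

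Rec27 is a component of linear elements, the protein axis that fission yeast forms along meiotic chromosomes in place of a synaptonemal complex, and it is concentrated at DNA break hotspots. Rec12, the Spo11 homolog, makes those breaks, so a rec12 deletion leaves the linear elements but no programmed breaks. Gti1 is a WOPR-family transcription regulator, named for inducing gluconate transport, and Pac2 is its relative in this yeast. Tup12 and its paralog Tup11 are corepressors that act with Ssn6 in glucose repression.

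On the ASM294v3 annotation gti1 lies on the minus strand of chromosome I, from 377844 to 381412, with its coding sequence at 378192 to 380354 and a 5′ UTR of 1058 bp at 380355 to 381412. The locus therefore holds the start of the coding sequence, the whole 5′ UTR and 1588 bp upstream of the transcript. The gap between gti1 and loc1 runs from 381413 to 384156 (2744 bp), and loc1 points away from it on the plus strand. The long noncoding RNA SPNCRNA.2149 runs antisense over all of gti1 and into the gap, from 377706 to 383200. Downstream of gti1, tup12 occupies 374316 to 377137 on the minus strand. Beyond loc1 lie rsm19, a mitochondrial ribosomal protein gene, and tif313, which encodes a translation initiation factor subunit.

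The sequences that carry the description are printed here: the 200 bp bin with most ends in each library, because they lie under the summits, and the 250 bases before the annotated gti1 start, because it is the stretch next to the transcript start and the first window overlaps it. The build is not given in the sources used here, and it was checked as described under the processing. Capitals mark unbroken runs of 12 or more purines or of 12 or more pyrimidines; the bin from the de-crosslinked library holds 3 of them, the longest of 18 bases, and the other sequences hold 0.
De-crosslinked summit, chrI:381601-381800, plus strand: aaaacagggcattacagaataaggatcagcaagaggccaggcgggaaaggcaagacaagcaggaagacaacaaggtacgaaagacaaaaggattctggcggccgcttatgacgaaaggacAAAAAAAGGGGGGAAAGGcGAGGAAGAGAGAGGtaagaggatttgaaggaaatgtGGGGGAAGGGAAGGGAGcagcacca
Interacting summit, chrI:382001-382200, plus strand: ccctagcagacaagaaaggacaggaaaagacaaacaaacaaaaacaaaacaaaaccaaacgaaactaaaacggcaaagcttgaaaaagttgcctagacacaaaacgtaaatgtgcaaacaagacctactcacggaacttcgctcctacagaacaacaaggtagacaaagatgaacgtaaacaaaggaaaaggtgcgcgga
Before the gti1 start, chrI:381413-381662, minus strand: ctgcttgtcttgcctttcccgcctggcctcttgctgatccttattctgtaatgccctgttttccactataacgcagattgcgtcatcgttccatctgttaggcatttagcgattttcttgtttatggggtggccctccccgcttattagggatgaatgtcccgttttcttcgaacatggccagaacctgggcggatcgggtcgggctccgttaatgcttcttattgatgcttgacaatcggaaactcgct

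The de-crosslinked summit was 78.0% purine on the plus strand, and 0.0716% of 62858 windows of 200 bp across the genome were at least as one-sided. A run of 18 or more was present in 2.63% of those windows. The interacting summit was 68.5% purine, a level reached on one strand or the other in 1.11% of windows. Base composition was examined after the sequence had been seen. GC content was 50% at the de-crosslinked summit and 40.5% at the interacting summit, against 36.1% over the genome. Motifs known from fission yeast hotspots were searched on both strands: ATGACGT (the M26 site), TGACGTCA (the full CRE, which shares TGACGT with M26), CCAATCA (the CCAAT box) and CCCCGCAC (oligo-C). Each had 0 exact matches in the printed windows and in the 1588 bp upstream of gti1, and they were present in 0.433%, 0.0700%, 2.12% and 0.0143% of all 200 bp windows, in that order. The absence of these letters says nothing of which factors bind there.

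The locus held 521 ends in the interacting library (95% Poisson interval 477 to 568) and 1218 in the de-crosslinked library (1151 to 1288). Per 1 kb this was 14.5 times the median bin (13.3 to 15.8) and 27.1 times (25.6 to 28.6), where the median bin held 12 and 15 ends. All 3 bins of 1 kb were at 10 or more times the median in both libraries, and 0.453% of all bins (interacting) and 0.668% (de-crosslinked) reached that level. The successive bins held 187, 126 and 208 interacting ends, and 178, 626 and 414 de-crosslinked ends. Density was lower outside the borders: the bin to the left held 17 and 60 ends and the bin to the right 57 and 82, all below 10 times the median. The 5 kb to the left averaged 21.4 and 34.2 ends per kb, and the 5 kb to the right 18.6 and 34.0.

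Lines whose ends both lay within 500 bp were linked and counted once as an event, because the DNA was amplified after ligation and copies of 1 join cannot be told from separate joins. The locus had 204 interacting and 485 de-crosslinked events, at 2.55 and 2.47 lines per event. Over whole libraries the figures were 35511 and 56018 events, at 2.87 and 2.20 lines per event. Event ends stood at 13.5 times (11.7 to 15.5) and 23.0 times (21.0 to 25.2) the median bin. As a share of all ends in its library, the locus took 0.255% (interacting) and 0.493% (de-crosslinked), a ratio of 0.518, and by events 0.286% and 0.432%, a ratio of 0.662. These intervals and all others here cover counting error only.

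**Figure D1:**
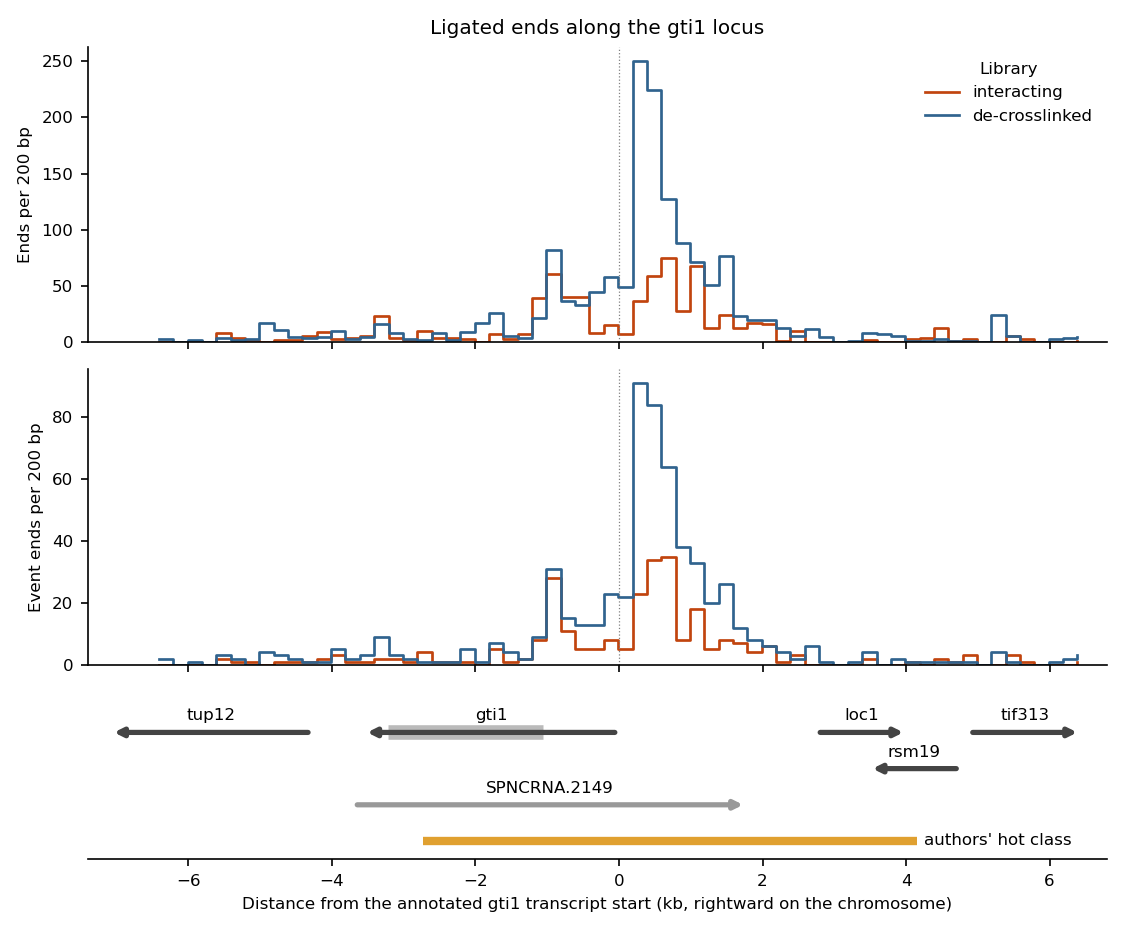
Ligated ends (top) and event ends (middle) per 200 bp against distance from the annotated gti1 start in kb, for the interacting library (orange) and the de-crosslinked library (blue); arrows show genes, the grey block the gti1 coding sequence and the yellow bar the authors' hot class. Ends peak just right of the gti1 start, upstream of the gene, at 250 de-crosslinked and 75 interacting ends, with a smaller peak over the 5′ UTR.

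Ends were densest upstream of gti1 and in its 5′ UTR, and less dense in its coding sequence and in the neighbouring genes. Over the 1588 bp upstream there were 311 interacting ends (196 per kb) and 934 de-crosslinked ends (588 per kb). The 5′ UTR held 178 and 266 ends (168 and 251 per kb). The coding sequence of gti1 stood at 31.9 and 46.2 ends per kb, well under its own 5′ UTR in both libraries. It was still above the median 1 kb bin, which held 12 and 15 ends. The 3′ UTR, outside the locus, held 29 and 18 ends (83.3 and 51.7 per kb), but only 3 and 10 event ends. Among the neighbours, tup12 had 9.57 and 23.0 ends per kb, rsm19 had 17.1 and 20.2, tif313 had 7.62 and 26, and loc1 had 1.57 and 22.7. The gap between the libraries was widest at loc1, which had next to no ends in the interacting one.

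The libraries differed in where ends were densest within the locus. In the de-crosslinked library the summit was at 381601 to 381800 (250 ends, 91 event ends), 289 bp upstream of the gti1 start, and the next bin to the right was close behind it (224 ends, 84 event ends). In the interacting library the summit was at 382001 to 382200 (75 ends, 35 event ends), 689 bp upstream, with the bin to its left at 59 ends and 34 event ends. By event ends the 2 densest bins of each library lay side by side and did not differ beyond counting error. At the de-crosslinked summit the interacting library held 37 ends and 23 event ends, and at the interacting summit the de-crosslinked library held 127 and 64. From 381001 to 381600, over the transcript start and the first part of the 5′ UTR, the interacting library held 8, 15 and 7 ends in successive bins and the de-crosslinked one 45, 58 and 49. The interacting library had a further peak at 382401 to 382600 (68 ends, 18 event ends), between bins of 28 and 13 ends, where the de-crosslinked library held 71 ends and 33 event ends. A peak in the 5′ UTR, at 380401 to 380600, stood at 61 interacting ends (28 event ends) and 82 de-crosslinked ends (31 event ends). The gti1 transcription unit thus took 32.8% of interacting and 22.1% of de-crosslinked locus events.

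All 521 and 1218 ends of the locus were in the class the authors call hot, which holds 33.4% and 38.4% of all ends. Cold ends were first met at 378640 on the left and 385772 on the right, and hot ends ran from 378676 to 385565 (6890 bp), from inside the gti1 coding sequence to beyond loc1. The authors' rule for hot and cold is not given in the sources used here.

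Before partners are compared, joins found in both libraries have to be named. Of the interacting events counted (200, leaving out those under 5 kb), 30 had a de-crosslinked event with both ends within 500 bp, 15.0% against 2.02% in the whole library. From the de-crosslinked side this was 30 of 480, 6.25% against 1.26%. Within 100 bp there were 13, and within 20 bp there were 8 (4.0% and 1.67%, against 0.627% and 0.392%). The locus was chosen for its many ends, and matches are more easily met where ends are dense. The whole-library shares do not allow for that density, so they do not show a trait particular to this locus. How the joins alike to 20 bp came to be in both libraries was not tested. None of the 30 interacting events lay within 100 kb of the locus. The nearest was 308.5 kb away, between SPAC977.17 and SPAPJ695.02. This did not hold for the de-crosslinked side. There, leaving out such joins took the chromosome I events within 100 kb from 6 of 213 to 5 of 199.

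The share of events between the locus and another chromosome did not differ between the libraries beyond counting error. They made up 110 of 200 interacting events (55.0%, 95% exact interval 47.8 to 62.0) and 267 of 480 de-crosslinked events (55.6%, 51.1 to 60.1). The difference of -0.625 percentage points did not pass a two-sided Fisher's exact test (p = 0.933, adjusted p = 0.933 by Benjamini-Hochberg over 9 tests). With 1 library per group, this and each test that follows compares these libraries, not the conditions. Partners were spread over the chromosomes much as other ends were: 45.0%, 35.0% and 20% lay on chromosomes I, II and III in the interacting library, beside 44.9%, 35.6% and 19.4% of other event ends. In the de-crosslinked library the shares were 44.4%, 35.2% and 20.4%, beside 44.7%, 36.3% and 19.0%. Against the rest of its library, the de-crosslinked locus had fewer joins to other chromosomes, 55.6% against 63.0% (Fisher's exact test, adjusted p = 0.00312). Chromosome I is the longest of the 3, and against other ends of chromosome I only, at 55.2%, the difference was 0.425 points (exact test, adjusted p = 0.933). The interacting locus stood at 55.0% against 57.0% in its library (exact test, adjusted p = 0.638) and 49.7% on chromosome I.

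Joins to nearby places took a larger share in the interacting library than in the de-crosslinked one. Among events on chromosome I at least 5 kb apart, 17 of 90 (18.9%, 11.4 to 28.5) were within 100 kb among interacting joins, and 6 of 213 (2.82%, 1.04 to 6.03) among de-crosslinked joins. The share was 16.1 percentage points higher with crosslinks in place, with an odds ratio of 8.03 (two-sided Fisher's exact test, p = 6.55e-06, adjusted p = 5.90e-05). Without the joins found in both libraries, a check added after seeing the data, the counts were 17 of 76 (22.4%) and 5 of 199 (2.51%), with an adjusted p of 5.33e-06 by the same exact test. Within each library the locus was not distinguished from other places by this share. The rest of the interacting library stood at 24.6% (exact test, adjusted p = 0.474) and its chromosome I at 21.1% (adjusted p = 0.896). The rest of the de-crosslinked library stood at 4.52% (exact test, adjusted p = 0.474) and its chromosome I at 3.90%.

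**Figure D2:**
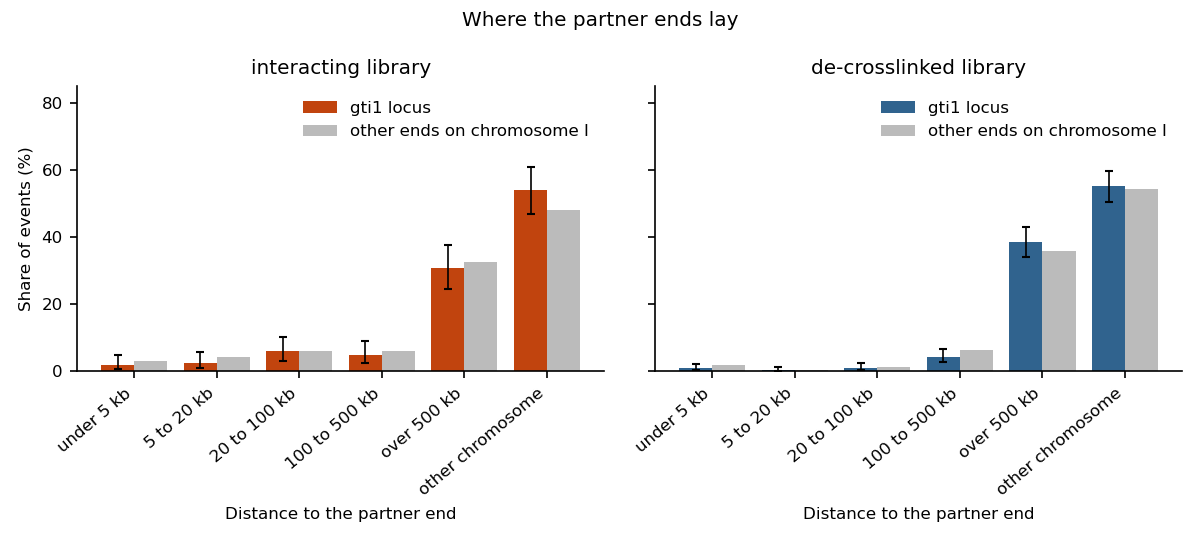
Share of events in percent by distance to the partner end, for the gti1 locus (coloured, with 95% exact intervals) and for other ends on chromosome I (grey), in the interacting library (left, 204 events) and the de-crosslinked library (right, 485 events); 1 de-crosslinked event inside the locus is not drawn. From 5 to 100 kb the orange bars add up to 17 events and the blue ones to 6, while the tallest bar in both panels is that for other chromosomes.

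By distance, the interacting locus had 4 events under 5 kb (1.96%), 5 from 5 to 20 kb (2.45%), 12 from 20 to 100 kb (5.88%), 10 from 100 to 500 kb (4.90%) and 63 beyond (30.9%). The de-crosslinked locus had 4 under 5 kb (0.825%), 1 from 5 to 20 kb (0.206%), 5 from 20 to 100 kb (1.03%), 21 from 100 to 500 kb (4.33%) and 186 beyond (38.4%). Other ends of chromosome I followed the same order of classes in the interacting library, at 3.11%, 4.23%, 6.06%, 6.01% and 32.5%. The near events fell on both sides of the locus, 8 to the left and 9 to the right for the interacting library, and 2 and 4 for the de-crosslinked one. They came from both parts of the locus as well: 5 of 27 same-chromosome events of the gti1 transcription unit (18.5%) and 12 of 63 of the upstream part (19.0%) were near among interacting events, and 2 of 49 (4.08%) and 4 of 164 (2.44%) among de-crosslinked events.

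The 17 near events of the interacting library reached a series of named genes, and 66 lines stood behind them. The one with most lines joined the locus to mre11, which encodes the nuclease of the break repair complex MRN, 53.9 kb to the right (23 lines). Next came atp25 (9 lines, 21.6 kb) and gef1, a guanine nucleotide exchange factor gene (6 lines, 89.2 kb). To the left, tsc2, a TOR pathway regulator, was reached by 2 events, of 5 lines at 9.51 kb and of 3 lines at 8.36 kb. The copper regulator gene cuf1 and the gap between SPAC24H6.13 and uba3 had 4 lines each, and mug177 and trm112 had 2 each. The remaining 8 events had 1 line each, at tup11 (81.8 kb to the left), SPAC18B11.09c, SPAC12G12.16c, SPAC630.06c, the gap between erg25 and mug177, pre1, the iron repressor gene fep1 and the histone demethylase gene lsd2. Most of these places were cold by the authors' class: 3 of the 17 partners, at fep1, gef1 and beside uba3, were hot.

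The 6 near events of the de-crosslinked library included fewer genes and more hot ends. The neighbour tup12 was reached by 14 lines, just past the limit at 5.18 kb, and SPAC12G12.16c with sif3 by 5 lines. The others, all hot, lay between mre11 and fep1 (4 lines), at ste7 (1), at SPAC24H6.13 (1) and at gef1 (3). SPAC12G12.16c, gef1 and SPAC24H6.13 (for the interacting library, the gap beside it) were reached in both libraries, though not within 500 bp. Every gene reached by a near event in either library is given here, whatever its number of lines.

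**Figure D3:**
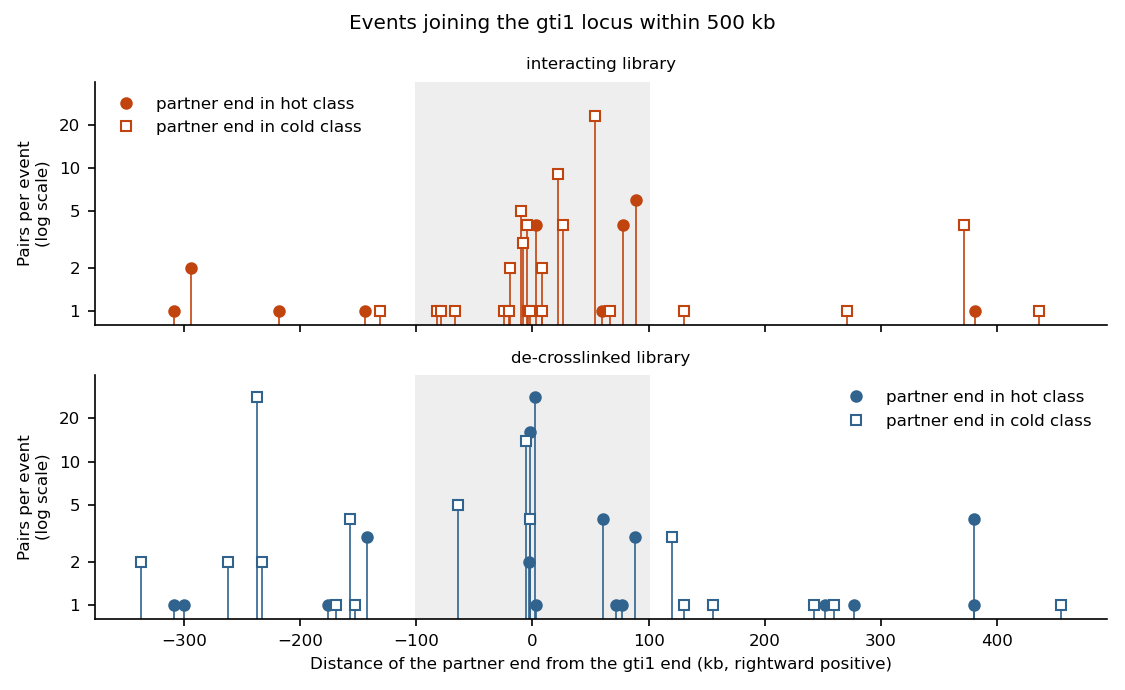
Events between the locus and places within 500 kb, by distance of the partner end in kb (right positive) and lines per event on a log scale; filled circles are partner ends in the authors' hot class, open squares cold ends, and grey shading marks 100 kb on each side. The interacting library (top) has its events gathered in the shading, with the tallest at mre11 (23 lines), and the de-crosslinked library (bottom) has its events spread over the whole range.

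The deposited pairs start at 1999 bp apart, so shorter joins were not seen. From there to 5 kb the interacting library had 4 events, at the gap between tup12 and gti1 (4 lines and 1 line), in gti1 (1 line) and in the gap before loc1 (4 lines). The de-crosslinked library had 4, of which 3 joined the locus to gti1 itself (16, 4 and 2 lines) and 1 to loc1 (1 line). It also had 28 lines, linked to 1 event, that joined the 5′ UTR and start region of gti1 with the gap before loc1; their gti1 ends ran from 380293 to 381834 and the others from 382579 to 383861, so that chain of lines may hold more than 1 join.

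Partner ends were in the authors' hot class more often than other ends in the de-crosslinked library, and the test was not passed in the interacting one. Of events at least 5 kb apart or on another chromosome, 84 of 200 interacting partners (42.0%, 35.1 to 49.2) and 220 of 480 de-crosslinked partners (45.8%, 41.3 to 50.4) were hot. The libraries differed by -3.83 percentage points, which did not pass the exact test (adjusted p = 0.511). Other event ends were hot in 35.1% and 38.4% of cases, a difference of 6.87 points for interacting partners (Fisher's exact test, adjusted p = 0.102) and of 7.44 points for de-crosslinked ones (adjusted p = 0.00312). Against the partners of other hot ends, at 39.8% and 40.7%, the excess was 2.18 points (adjusted p = 0.883) and 5.15 points (adjusted p = 0.112) by the same exact test. In the interacting library 3 of 17 near partners, 31 of 63 beyond 500 kb and 45 of 110 on other chromosomes were hot. The same counts in the de-crosslinked library were 4 of 6, 95 of 186 and 113 of 267. Without the joins found in both libraries, a check added after seeing the data, 64 of 170 interacting partners were hot (37.6%). That was 2.95 points above other event ends, at 34.7% (Fisher's exact test, adjusted p = 0.631). Of de-crosslinked partners 201 of 450 were hot (44.7%), 6.51 points above 38.2% (Fisher's exact test, adjusted p = 0.0166).

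By annotation, 128 of 200 interacting partners (64.0%, 56.9 to 70.6) lay in coding genes, beside 72.2% of other event ends. Another 20.5% lay in a long noncoding RNA gene with no coding gene over it (16.2% of other ends) and 15.5% in no gene (11.5%). In the de-crosslinked library the shares were 70.6% (66.3 to 74.7), 19.0% and 10.4%, beside 71.6%, 17.8% and 10.5%. The interacting partners were thus less often in coding genes than other ends of that library, a difference that was not tested. These counts keep the joins found in both libraries, and many of those had interacting partners between coding genes. The shares were not recomputed without them. The de-crosslinked partners were much like the other ends.

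No distant place took many of the events. In 10 kb windows, partners fell in 178 (interacting) and 369 (de-crosslinked) windows of 1258, and 82 windows had both (46.1% and 22.2% of each). Only 18 and 76 windows had 2 or more events. The interacting window with most events was on chromosome I at 3570001 to 3580000 and held csx1 and the genes around SPAC17A2.11. It had 5 events (2.5% of the locus events, where 0.476% of library event ends lie), and the de-crosslinked library had 2 there. Those 5 include joins found in both libraries, with partner ends at 3575405, 3575413 and 3579534. The joins to 3575405 and 3575413 had locus ends at 381852 and 381264, just past the 500 bp linking width. They may thus be 1 join. The window of pcs2, hsr1 and the gap between them had 3 interacting events, of which 1 had 21 lines, and 6 de-crosslinked ones. The other 16 interacting windows had 2 events each. Near the locus they held tup11, mug177, tsc2, atp25 with cuf1, and fep1 with lsd2. Farther away they held the gap between eme1 and glt1, the gap before fhn1, rid1 with cft2, rtn1 with but2, fic1 with the stress regulator gene atf1, SPBC18H10.18c with vps38, SPBC25B2.08, vrp1 with rbd1, ght1, SPCC16C4.21 with scw1, and nts1. The events in the windows of eme1 with glt1 and of rtn1 with but2 were all joins found in both libraries.

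The de-crosslinked windows with most events ranged from dense to sparse ones. Those of mug115, of hsr1 and of ste11, the master regulator gene of sexual differentiation, had 6 events each (1.25% of the locus events), where 0.682%, 0.560% and 0.529% of library event ends lie. The window of arx1, rfc1 and rgp1 had 5 events, where 0.151% of library event ends lie. Those of swc2 and med15, of rtn1 and but2, of the mitotic inhibitor wee1, and of ght1 had 4 each (0.833% of the locus events), where 0.0750%, 0.371%, 0.142% and 0.211% lie. There were 49 other places where de-crosslinked ends reached 10 or more times the median bin. Of these, 16 were joined to the locus by 17 of 200 interacting events (8.50%, 5.03 to 13.3) and 26 by 49 of 480 de-crosslinked events (10.2%, 7.65 to 13.3). These places held 5.19% and 7.13% of other event ends. Several of the 17 interacting events were among the joins found in both libraries. They lay at SPAC17A2.10c, mug114, ste11, rtn1 to but2, ole1 to gst4 and beside SPAC2H10.04. The interacting share was not recomputed without them, so no excess is read from it.

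The 5 events with most lines in each library were spread over the genome as well. In the interacting library they were at SPCC1529.01 on chromosome III (35 lines), pma1, the plasma membrane proton pump gene, 3490 kb away on chromosome I (25), mre11 (23), grt1 on chromosome II (23), and, tied at 21, the gap beside hsr1 and tif6 on chromosome III. In the de-crosslinked library they were at SPAC11D3.18c, 237 kb to the left (28), the gap within the locus (28), csc3 on chromosome II (22), the hexokinase gene hxk2, 2284 kb away (18), and amt2, an ammonium transporter gene (17). None of these places led in both libraries.

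Set among the 20 densest places of the de-crosslinked library, the gti1 locus was in the middle for near joins. Its interacting near share of 18.9% ranked 12th of 20, where the range was 5.17% to 37.5% and the median 20.7%, and its de-crosslinked share of 2.82% ranked 8th, where the range was 0% to 9.68% and the median 2.30%. The place with the most similar profile of partner distances was mug115 to SPAC56F8.15 (summed absolute difference of shares over 5 distance classes in both libraries, 0.101), followed by SPAC17A2.10c with SPAC17A2.11 (0.194) and SPAPB15E9.02c (0.242). Their interacting near shares were 12.4%, 7.69% and 20.7%. All 3 lie on chromosome I, as gti1 does, and so do other places among the 20. The distance classes include joins to other chromosomes, and in the de-crosslinked library that share went with the chromosome. It was 50.8% to 57.8% at places on chromosome I, 61.4% to 69.3% on chromosome II and 80.6% to 81.3% on chromosome III. The measure therefore favours places on chromosome I, so the shared chromosome is not read as a finding.

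**Figure D4:**
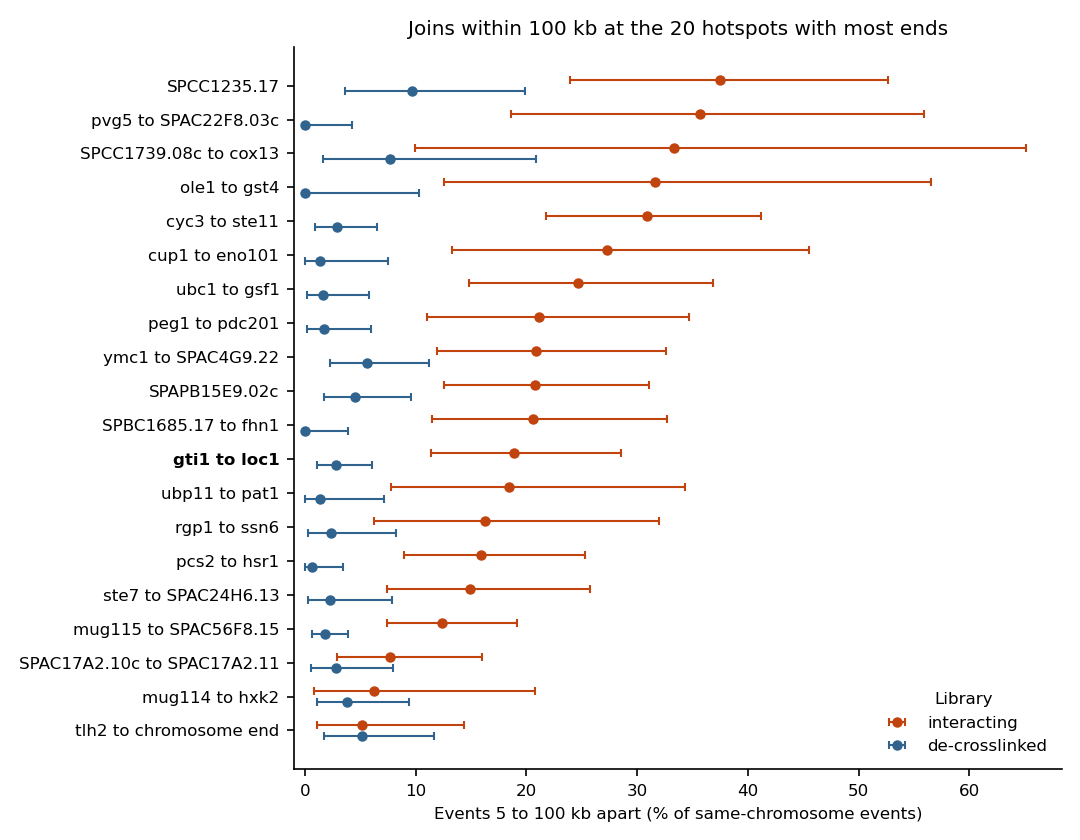
Share of same-chromosome events 5 to 100 kb apart, in percent with 95% exact intervals, at the 20 places with most de-crosslinked ends, for the interacting library (orange) and the de-crosslinked library (blue), ordered by the interacting share. The gti1 locus, in bold, is 12th, at 18.9% and 2.82%, and the interacting value is the higher one at all 20 places, by least at the end of chromosome II beyond tlh2 (5.17% and 5.15%).

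Genes of glucose repression and gluconate use, the setting in which Gti1 is known, were compared by ends per kb, with flanks of 500 bp added to each gene. Of the 21 listed genes, 6 were at 2 or more times the median gene in the interacting library (background 9.00% of 5113 protein-coding genes) and 8 in the de-crosslinked library (background 7.51%); without gti1, chosen for its ends, it was 5 and 7 of 20. The median of the list was 1.41 and 1.52 times the median gene. The list was chosen with earlier results of these data known, and it holds genes beside dense places, such as ssn6 and ght1. An excess over the background is therefore not independent of that choice, and the counts are given as a description. The corepressor gene ssn6 stood at 3.34 and 4.52 times, the glucose repressor gene scr1 at 2.94 and 2.93, and the G protein gene gpa2 of the glucose-sensing cAMP pathway at 2.39 and 2.96. The phosphogluconate dehydrogenase gene gnd1 stood at 2.36 and 3.05 and the gluconokinase gene idn1 at 2.30 and 1.25. The other listed gene of gluconate use, zwf1, was at 0.606 and 1.03. The hexose transporter genes ght1, ght3 and ght5 stood at 4.07, 2.76 and 2.19 in the de-crosslinked library and at 1.88, 1.83 and 1.42 in the interacting one, a difference that was not tested. The other listed transporter gene, ght6, was at 1.52 (de-crosslinked) and 1.36 (interacting). The interacting calls depended on the counting: by events, ght1, ght3 and ght6 reached the limit at 2.9, 2.31 and 2.28 times, and idn1 did not, at 1.75. The flanks mattered in both libraries. Without them, cgs2 took the place of gpa2 among the interacting calls (background 13.3%) and of ght3 among the de-crosslinked calls (background 8.90%). The family partner pac2 was low in both, at 0.819 and 0.598, as was the gluconeogenesis gene fbp1, at 0.625 and 0.731, while tup12 stood at 1.00 and 1.49 and tup11 at 1.36 and 1.31.

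Some of these genes were joined to the locus itself. Counting a partner within 500 bp of a gene, 4 of the 20 others were joined in the interacting library (tup11, gnd1, ght1 and cgs2, by 1 event each), where 4.11% of all genes were. In the de-crosslinked library it was 7 of 20, where 9.15% of all genes were: ght1 by 4 events, scr1 by 2, and tup12, gpa2, pka1, ssn6 and cgs2 by 1 each. Genes differ in length and in their own density of ends, and tup12 is the neighbour, which these shares do not take into account. Nor do they allow for the choice of the list with earlier results known. Of all the listed genes, ght1 and cgs2 were joined in both libraries. The 1 interacting event of ght1 was among the joins matched within 500 bp between the libraries. The share of all genes joined in both libraries is not set beside this.

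**Figure D5:**
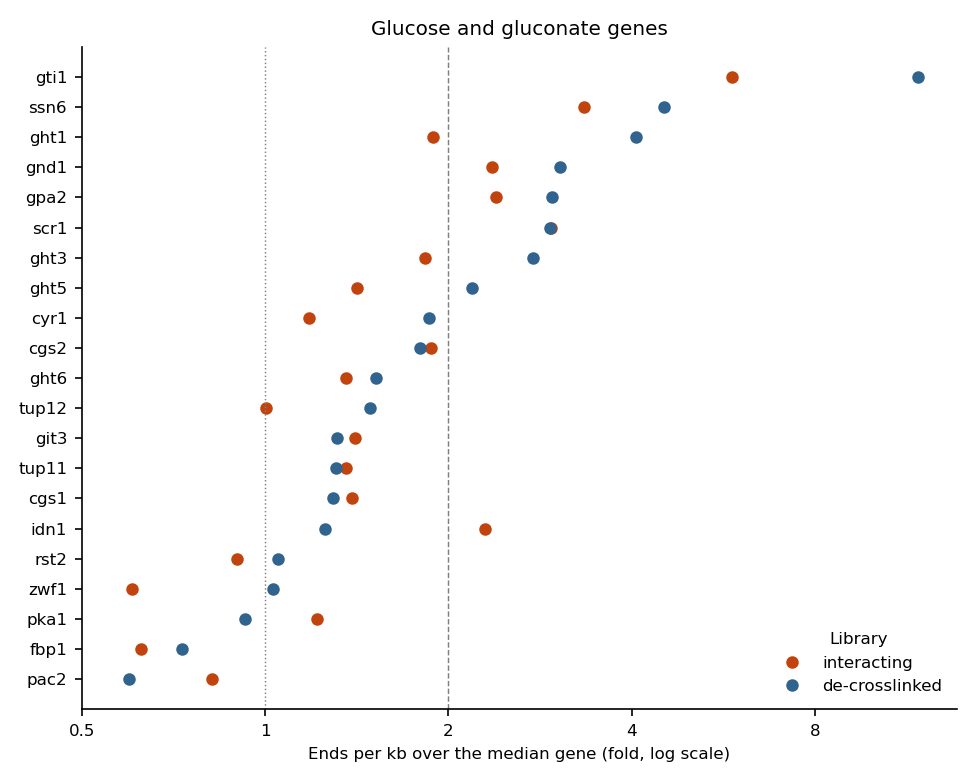
Ends per kb of gene with its 500 bp flanks, relative to the median protein-coding gene, as fold on a log axis, for the 21 listed genes in the interacting library (orange) and the de-crosslinked library (blue), ordered by the de-crosslinked value; the dotted line marks the median gene and the dashed line the limit of 2. The gene with the highest value is gti1, at 5.83 and 11.8, and ssn6 comes next at 3.34 and 4.52.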

How the data were processed

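Fission yeast Rec27-GFP chromatin was measured by sequencing of ligated immunoprecipitated DNA, 1 library for each of 2 groups. The deposited tables list 1 pair per line, with the chromosome, base position and hot or cold class of both ends as the authors gave them; lines are counted here, and sequencing depth beyond the number of pairs is unknown. The submitters' processing notes name CASAVA 1.8.0; the aligner, genome build, filters and the rule for hot and cold are not given in the sources used here. Per the labels' protocols the DNA was amplified before library preparation (Sequenase) and prepared with a Nextera kit.

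Positions were read on ASM294v3. As a check, 468527 bp of that genome with no unique 50 bp word held 0 ends of either library, while the same stretches moved by 100 bp to the left and right held 2460 and 2466 ends. No such base lay in the locus.

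Lines with both ends within 500 bp of another line were linked by single linkage into events. The linking was tested on simulated joins placed evenly over the genome. That test held no dense place, so it does not show how well separate joins are kept apart at this locus. Shares were taken over events at least 5 kb apart or on another chromosome. Libraries, and the locus and the rest of its library, were compared by two-sided Fisher's exact tests on events, adjusted by Benjamini-Hochberg over 9 tests, with a threshold of 0.05; shares have exact Clopper-Pearson and counts exact Poisson intervals at 95%. Places were ranked by their ends in 1 kb bins at 10 or more times the median bin, merged across 1 bin. Partner density was read in 10 kb windows and genes in ends per kb. Python 3.11.15, pandas 2.3.3, numpy 2.4.6, scipy 1.17.1 and matplotlib 3.10.9 were used.

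The locus, the gene lists and the tests were chosen with earlier results of these data known. The rule for named genes took the genes within 5 kb of the locus, those in partner windows of 2 or more events, those of the 5 events with most lines, the glucose and gluconate list and the 3 places most alike in profile. It gave 76 windows in the de-crosslinked library, of which only those with 4 or more events are named; genes of all near events were added after their values were seen. Alternatives changed the linking width, the distance limits, the window, the bins, the count of lines and the comparison set.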

Additional observations from a re-analysis of the deposited data

How the results depend on the processing

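Of 114 recomputed values, 95 were counted as unchanged. Tested shares had to keep their direction and their side of the threshold, and folds had to stay within counting error. Summits had to move by less than 200 bp. Gene list counts had a looser rule, by which 6 and 8 were alike. The near share, interacting less de-crosslinked, kept its direction and its side of the threshold in all 11 alternatives. The difference ranged from 9.53 to 22.9 percentage points, with an adjusted p of at most 0.0184 by Fisher's exact test. The other shares were less firm. Without the joins found in both libraries, the interacting excess of hot partners over its library fell to 2.95 points (Fisher's exact test, adjusted p = 0.631). With every line counted, the same exact test gave a hot share that differed between libraries by -6.01 points (adjusted p = 0.0435), and the interacting locus stood 6.16 points above its library (adjusted p = 0.00781); without chains of lines it stood 8.0 points above (adjusted p = 0.0421). The excess of hot partners in the de-crosslinked library lost significance with linking at 1000 bp (4.79 points), with events of 2 or more lines (5.61) and against partners of other hot ends (5.15). Its lower share of other-chromosome joins lost significance with events of 2 or more lines (-8.49 points) and turned to 0.425 against chromosome I alone. The interacting other-chromosome share turned to 5.33 points above chromosome I alone and to 1.12 above the rest with a narrower locus. The difference between libraries in that share turned to 2.76 points with the narrower locus and to 0.669 with pairs from 20 kb. The de-crosslinked near share, locus less rest, turned to 0.0121 points with events of 2 or more lines. The comparisons with chromosome I alone, with partners of other hot ends and without joins found in both libraries were added after seeing the data. The causes were not tested.

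The fold over the median bin moved with its construction: in the interacting library it was 17.4 with 500 bp bins and 9.92 with a wider locus, and in the de-crosslinked library 23.0 by events, 29.0 with 500 bp bins, 33.3 with a narrower locus and 18.1 with a wider one. No paired analysis was possible because each group is 1 library, and no replicate could be left out. The near joins rest on 17 and 6 events.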
